A study of Homo sapiens with 40 samples.

Results

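Transcript levels of 9 genes of the BCL2 family and of CASP9, the gene of caspase 9, were followed in BEAS-2B cells treated for 2 h with agents that raise cyclic AMP (cAMP). The 10 genes were chosen by name, with earlier results of these data known. They were BCL2L11, PMAIP1, BBC3, BMF, BCL2, BCL2L1, MCL1, BAX, BAK1 and CASP9, and all 10 had a row in the table of 15788 genes. Counts of these genes, given beside the share over all genes, are therefore descriptive and do not test the set. Of the 10, 9 had a mean of at least 1 TPM (a transcript level scaled for transcript length and sequencing depth) and were among the 12591 genes tested, whereas BMF fell below that mean and is given by its values.

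BEAS-2B is an immortalised line of human bronchial epithelium, carrying SV40 large T antigen, which binds p53. The 40 libraries formed 10 groups of 4. The EP4 prostanoid receptor agonist ONO-AE1-329, here ONO, was given at 0.1 nM, at 1 nM or at 1 uM. The β2-adrenoceptor agonist vilanterol was given at 100 nM. Each of these 4 treatments was also combined with 1 uM roflumilast N-oxide (RNO), which inhibits the cAMP-degrading PDE4 enzymes, and the last groups were RNO alone at 1 uM and vehicle. All cells were confluent and had spent the night before treatment in serum-free medium. The submitters describe 1 uM ONO and 100 nM vilanterol as maximal and both lower doses of ONO as sub-maximal.

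The BCL2 family sets whether the outer mitochondrial membrane stays intact. BAX and BAK1 form the pores that release cytochrome c, the anti-apoptotic proteins BCL2, BCL-xL and MCL1 hold them in check, and the BH3-only proteins BIM, NOXA, PUMA and BMF bind the anti-apoptotic proteins or act on BAX and BAK1 directly. Released cytochrome c assembles with APAF1 into the apoptosome, which activates caspase 9. The cAMP pathway acts on transcription largely through CREB, which binds the element TGACGTCA or its shorter core TGACG, and forkhead (FOXO) factors, which bind TGTTTAC, are known regulators of the BIM gene.

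The 250 bases before the annotated starts of the 3 genes that rose (results below) are shown, as RefSeq gives them for GRCh38.p14, with matches to these motifs in capitals and each sequence read 5′ to 3′ on the strand of its gene. CASP9 has 2 annotated starts in that table.
BCL2L11, chr2:111120664-111120913, plus strand: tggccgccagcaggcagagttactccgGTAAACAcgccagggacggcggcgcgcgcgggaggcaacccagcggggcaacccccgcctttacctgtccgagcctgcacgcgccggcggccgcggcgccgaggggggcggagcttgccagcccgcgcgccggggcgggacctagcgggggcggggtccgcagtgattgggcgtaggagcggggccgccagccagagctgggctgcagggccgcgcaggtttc
PMAIP1, chr18:59899746-59899995, plus strand: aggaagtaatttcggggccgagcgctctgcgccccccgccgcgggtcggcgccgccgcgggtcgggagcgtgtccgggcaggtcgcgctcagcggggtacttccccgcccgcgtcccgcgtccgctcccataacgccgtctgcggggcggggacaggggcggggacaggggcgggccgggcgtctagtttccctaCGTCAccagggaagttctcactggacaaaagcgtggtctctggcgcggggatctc
CASP9 first start, chr1:15524216-15524465, minus strand: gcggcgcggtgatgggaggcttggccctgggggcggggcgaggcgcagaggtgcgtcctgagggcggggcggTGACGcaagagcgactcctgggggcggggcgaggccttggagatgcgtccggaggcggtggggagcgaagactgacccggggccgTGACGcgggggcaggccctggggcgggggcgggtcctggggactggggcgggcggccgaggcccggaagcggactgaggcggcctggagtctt
CASP9 second start, chr1:15524791-15525040, minus strand: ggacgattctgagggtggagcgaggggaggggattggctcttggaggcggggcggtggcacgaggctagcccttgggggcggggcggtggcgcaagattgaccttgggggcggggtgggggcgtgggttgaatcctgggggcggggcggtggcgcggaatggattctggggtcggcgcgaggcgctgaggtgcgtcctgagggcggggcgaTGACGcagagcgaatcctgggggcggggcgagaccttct

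Windows of 300 bases (250 before and 50 after a start) were found for 9 of the 10 genes, 12 windows in all, and were searched on both strands. TGACGTCA, which contains TGACG, was in none of the 12, and 1.85% of all 35116 windows in the table held it. TGACG was in 7 of the 12 windows, from 6 genes, and in 24.6% of all windows in the table. In CASP9 it began 178 and 93 bases before the first start, and 39 bases before and 25 bases after the second. PMAIP1 held its reverse complement CGTCA 55 bases before the start. BCL2, BCL2L1, BAX and BMF, which did not rise, each held 1 match as well. The BCL2L11 window held no TGACG. It had 1 match to the forkhead motif, read on its strand as GTAAACA, 223 bases before the start, and 3.42% of all windows hold that motif. A match describes these letters and does not show binding.

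The levels of the 10 genes spanned more than 2 orders of magnitude on the length-scaled TPM scale. Over the 40 libraries BAX averaged 174.8 TPM, MCL1 89.0 TPM, BCL2L1 84.0 TPM and BAK1 24.7 TPM. BCL2L11 averaged 17.1 TPM, CASP9 9.35 TPM, PMAIP1 7.29 TPM and BBC3 6.18 TPM. BCL2, the gene that names the family, averaged 2.62 TPM, and BMF 0.8496 TPM. The mRNA of BCL2L1 and of MCL1 was therefore more abundant than that of BCL2 in every library, with lowest values of 69.8 and 64.6 TPM against a highest BCL2 value of 3.68 TPM.

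**Figure D1:**
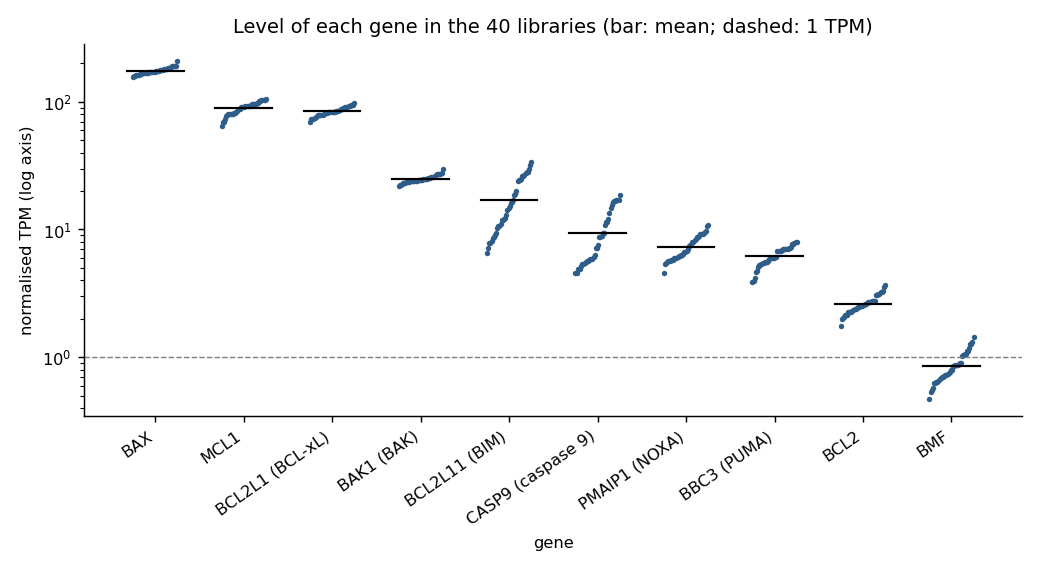
Normalised TPM on a log axis (vertical) of the 10 genes (horizontal, in order of their mean), with 1 point per library, sorted from low to high within a gene, and a bar at the mean of 40 libraries. BAX lies highest at 174.8 TPM, BMF lies around the dashed line at 1 TPM, and BCL2L11 and CASP9 spread most.

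The cells carried the epithelial keratins KRT8 (359 TPM on average) and KRT18 (292 TPM) but little EPCAM (0.265 TPM) and CDH1 (0.745 TPM), and the mesenchymal gene VIM stood at 1306 TPM. The endothelial markers PECAM1 and VWF averaged 0.117 and 0.324 TPM. The cAMP target NR4A3 averaged 73.3 TPM with vilanterol, against 1.35 TPM in vehicle. Vehicle replicate 3 stood apart: its median absolute deviation from the other 3 vehicle libraries over all genes tested was 0.17 on the log2 scale, the highest of the 40 libraries, which went down to 0.05. Results against vehicle are therefore also given without it where a call depends on it. The summed level of the 4 epithelial markers in the table, nearly all of it KRT8 and KRT18, was highest in vehicle libraries, at 696 to 839 TPM. It was 568 to 735 TPM with RNO alone, 536 to 689 TPM with 1 uM ONO and 539 to 695 TPM with vilanterol. CDH1 alone averaged 0.763 TPM with vilanterol, against 0.738 TPM in vehicle. The part of these markers in the results was not tested.

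Across all groups, 5 of the 9 genes tested differed from vehicle in an F test over the 9 treatments at a Benjamini-Hochberg adjusted p under 0.05, a threshold that 17.5% of all genes passed. They were BCL2L11 (adjusted p = 4.7e-18), CASP9 (8.1e-14), PMAIP1 (2e-09), MCL1 (3e-08) and BCL2L1 (2.8e-07). BAK1 (0.24), BBC3 (0.14), BAX (0.73) and BCL2 (1) did not pass. With the replicate number as a block in the model, BBC3 (adjusted p = 0.00015) and BAK1 (0.0025) passed too, while the share of all genes that passed was 33.7%. That test includes 1 nM ONO plus RNO against vehicle, where the replicate numbers did not pair the libraries by the rule given with the processing.

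Against vehicle, between 0 and 6 of the 9 genes were called, depending on the treatment. With RNO alone 0 of 9 were called by limma (2 at an unadjusted p under 0.05; 0.238% of all genes called), and with 0.1 nM ONO 0 of 9 (0 unadjusted; 0% of all genes called). BCL2L11 alone was called with 0.1 nM ONO plus RNO (1.12% of all genes) and with 1 nM ONO (1.01%). Then 4 were called with 1 nM ONO plus RNO (3.45% of all genes) and 4 with 1 uM ONO (7.21%). The count was 5 with 1 uM ONO plus RNO (15.8% of all genes), 5 with vilanterol (17.7%) and 6 with vilanterol plus RNO (18.4%). These treatments share the vehicle libraries. Split by direction, with 1 uM ONO plus RNO 3 were higher (8.92% of all genes) and 2 lower (6.86%), with vilanterol 3 higher (9.69%) and 2 lower (7.97%), and with vilanterol plus RNO 3 higher (10%) and 3 lower (8.44%). Of the 26 calls, 15 were higher than vehicle, all in BCL2L11, CASP9 and PMAIP1, and 11 were lower, all in MCL1, BCL2L1 and BAK1. With the replicate number as a block there were 43 calls of 81, while the share over all genes in the 9 comparisons was 15.4%, against 7.21% without the block. Of the 43, 38 lay in the 8 comparisons where the replicate numbers paired the libraries.

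**Figure D2:**
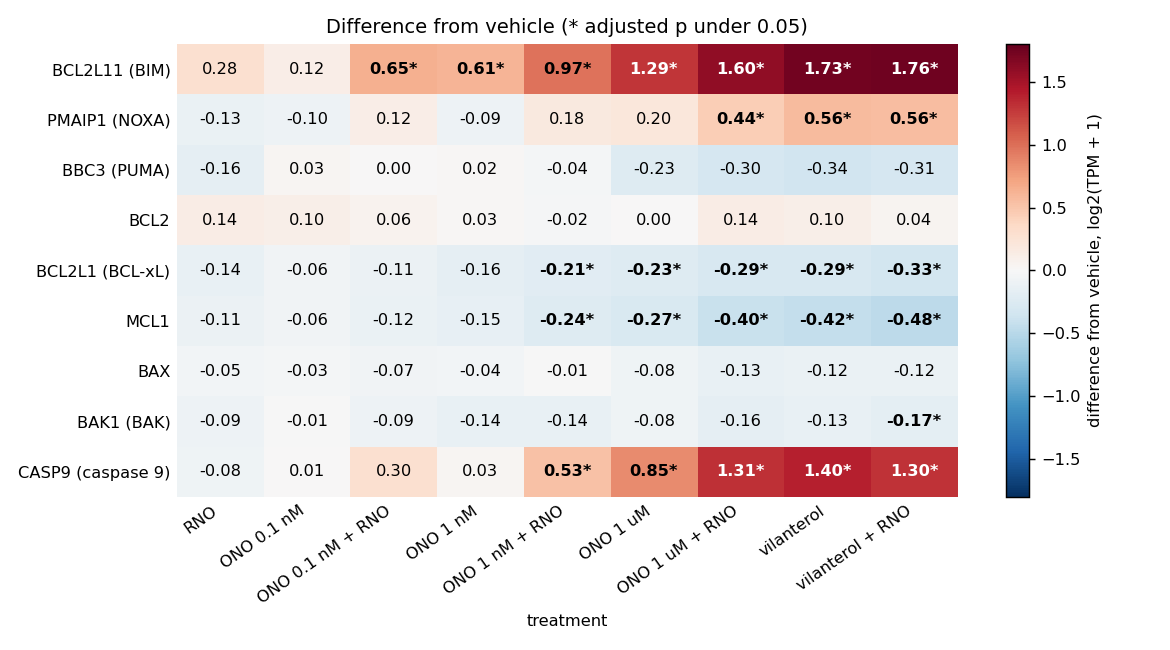
Difference from vehicle on the log2(TPM + 1) scale for the 9 genes tested (rows) in 9 treatments (columns), with colour and number giving the same value and an asterisk marking an adjusted p under 0.05. BCL2L11, PMAIP1 and CASP9 are above 0 in the stronger treatments, up to 1.76 for BCL2L11, while BCL2L1 and MCL1 are below 0, down to -0.48 for MCL1.

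BCL2L11, which encodes the BH3-only protein BIM, rose in 7 of the 9 treatments. Its 4 libraries held 32.2, 26.6, 28.4 and 26.1 TPM with vilanterol, against 9.12, 8.66, 6.53 and 7.11 TPM in vehicle. The lowest vilanterol library was therefore well above the highest vehicle library. The ratio of mean TPM was 3.61-fold (log2 fold change 1.73 ± 0.10, SE, adjusted p = 1.9e-15). Folds are ratios of mean TPM throughout, and log2 fold changes are differences of log2(TPM + 1), which understate the change of low genes. With ONO alone BCL2L11 stood at 7.85 ± 1.23 TPM in vehicle, 8.64 ± 1.34 TPM at 0.1 nM, 12.5 ± 1.58 TPM at 1 nM and 20.6 ± 2.91 TPM at 1 uM (SD, n = 4). The groups at 0.1 nM and vehicle overlapped, and those at 1 nM and 1 uM lay above vehicle without overlap. The difference from vehicle was 0.12 at 0.1 nM (adjusted p = 0.83), 0.61 at 1 nM (0.00045) and 1.29 at 1 uM (1.1e-11), all on the log2 scale.

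The same dose series in the presence of RNO had a higher BCL2L11 mean at each step. Without the replicate block, limma called the difference made by RNO at 0.1 nM ONO only (adjusted p = 0.24 at 1 nM and 0.23 at 1 uM). RNO alone held 10.3, 8.65, 10.6 and 9.33 TPM. With 0.1 nM ONO plus RNO the libraries held 13.0, 11.9, 14.1 and 12.1 TPM, and with 1 nM ONO plus RNO 17.1, 16.3, 16.4 and 15.3 TPM. With 1 uM ONO plus RNO the values were 29.9, 24.5, 24.6 and 24.1 TPM, and with vilanterol plus RNO 33.5, 27.5, 28.1 and 26.2 TPM. Ordered by mean, vehicle, 0.1 nM ONO and RNO formed the low end with neighbours that overlapped. The groups with 1 nM ONO and 0.1 nM ONO plus RNO overlapped each other and lay above these 3. The 1 nM ONO plus RNO group stood clear of both its neighbours, and the groups with 1 uM ONO, 1 uM ONO plus RNO, vilanterol and vilanterol plus RNO overlapped each neighbour in turn. The sub-maximal 0.1 nM ONO plus RNO group (12.8 ± 1.01 TPM) exceeded vehicle 1.63-fold (adjusted p = 0.00015). RNO alone exceeded vehicle 1.24-fold, in 3 of 4 replicate numbers (adjusted p = 0.27, 0.0094 with the replicate block, and 0.071 with the block but without vehicle replicate 3). The replicate numbers also differed in level: replicate 1 was above the group mean in 10 of 10 groups and replicate 4 in 0 of 10.

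**Figure D3:**
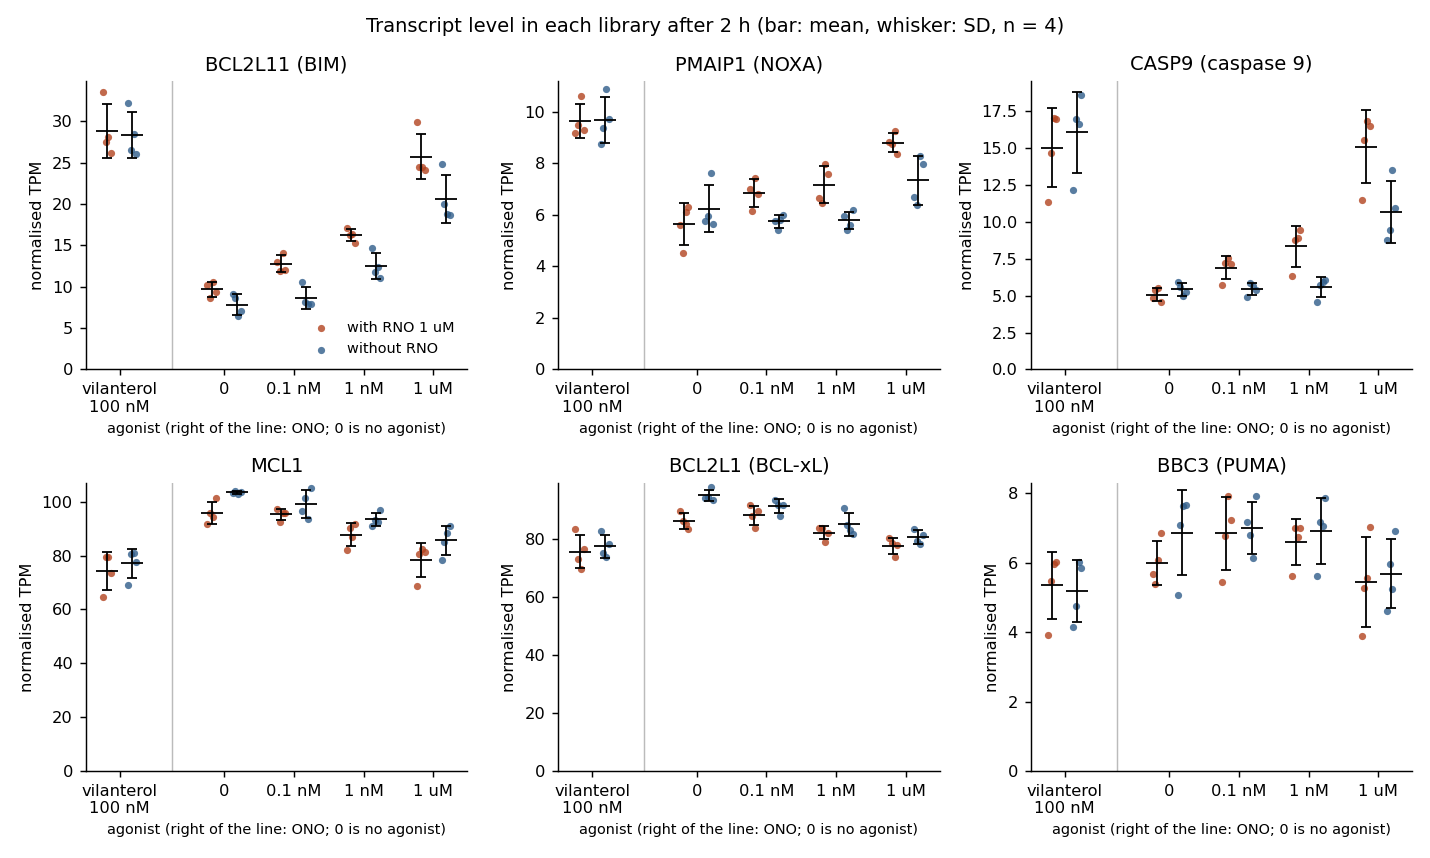
Normalised TPM (vertical, from 0) in each library for 6 genes, with vilanterol left of the grey line and ONO at 0, 0.1 nM, 1 nM and 1 uM right of it; points are libraries with RNO (red, left of each pair) and without it (blue), and bars and whiskers are mean and SD of 4. BCL2L11, PMAIP1 and CASP9 have their highest means in a vilanterol group, BCL2L11 there slightly higher with RNO (28.8 TPM) than without (28.3 TPM), while MCL1 and BCL2L1 have their lowest means there.

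PMAIP1, which encodes NOXA, a BH3-only protein that binds MCL1, rose in 3 of the 9 treatments and by a smaller fold than BCL2L11 in each. Vilanterol libraries held 8.75, 9.36, 10.9 and 9.74 TPM, against 5.76, 5.96, 7.62 and 5.65 TPM in vehicle, without overlap. The increase was 1.55-fold (log2 fold change 0.56 ± 0.08, SE, adjusted p = 3.7e-06). With vilanterol plus RNO the mean was 9.64 ± 0.658 TPM (SD, n = 4, 1.54-fold, adjusted p = 4.1e-06), and with 1 uM ONO plus RNO 8.80 ± 0.364 TPM (1.41-fold, adjusted p = 0.00018), again above every vehicle library. In the ONO series PMAIP1 stood at 6.25 ± 0.924 TPM in vehicle, 5.75 ± 0.243 TPM at 0.1 nM, 5.79 ± 0.337 TPM at 1 nM and 7.34 ± 0.947 TPM at 1 uM. The difference of 0.20 at 1 uM did not pass (adjusted p = 0.16). It passed with the replicate block (0.019) and without vehicle replicate 3 (log2 fold change 0.29, adjusted p = 0.029), the vehicle library with the high value of 7.62 TPM.

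BBC3, which encodes the p53 target PUMA, did not pass in any comparison. It stood at 5.19 ± 0.892 TPM with vilanterol, against 6.86 ± 1.23 TPM in vehicle (SD, n = 4), and the groups overlapped because vehicle replicate 1 held 5.06 TPM. Its log2 differences from vehicle were -0.23 with 1 uM ONO, -0.30 with 1 uM ONO plus RNO, -0.34 with vilanterol and -0.31 with vilanterol plus RNO, and each same-numbered library was lower in 4 of 4 cases. Adjusted p-values were 0.38, 0.15, 0.085 and 0.12, and with the replicate block 0.047, 0.0059, 0.0014 and 0.0036. With the block but without vehicle replicate 3 the first became 0.15 and the others 0.029, 0.0083 and 0.019. Without that library and without the block, they were 0.67, 0.36, 0.23 and 0.30 in the same order. Without vehicle replicate 1 and without the block, 1 uM ONO plus RNO (0.036), vilanterol (0.019) and vilanterol plus RNO (0.028) passed, and without replicate 4 of the 1 uM ONO plus RNO group that treatment passed as well (log2 difference -0.41). Replicate 1 was above the group mean in 1 of 10 groups and replicate 4 in 10 of 10.

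BMF encodes a BH3-only protein held at the cytoskeleton. Its lowest library held 0.469 TPM, the median was 0.792 TPM and the highest 1.45 TPM. The group means ran between 0.611 TPM with 0.1 nM ONO plus RNO and 1.02 TPM with RNO alone, and each group overlapped its neighbours. In the fit without a filter on low values its adjusted p against vehicle was at least 0.64.

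MCL1, the short-lived anti-apoptotic protein's gene, fell in 5 of the 9 treatments. Vilanterol libraries held 69.2, 80.6, 80.9 and 77.8 TPM, against 103.3, 103.9, 103.0 and 103.4 TPM in vehicle. The vehicle libraries lay within 1 TPM of each other and above every vilanterol library. The decrease was to 0.745 of the vehicle level (log2 fold change -0.42 ± 0.06, SE, adjusted p = 8.4e-07). With vilanterol plus RNO MCL1 stood at 74.3 ± 7.09 TPM (SD, n = 4, log2 fold change -0.48, adjusted p = 7.2e-08) and with 1 uM ONO plus RNO at 78.4 ± 6.44 TPM (-0.40, adjusted p = 2.6e-06). In the ONO series the means were 103.4 ± 0.381 TPM in vehicle, 99.1 ± 5.11 TPM at 0.1 nM, 93.4 ± 2.55 TPM at 1 nM and 85.7 ± 5.43 TPM at 1 uM. The last differed from vehicle (-0.27, adjusted p = 0.0016), while 1 nM did not (-0.15, adjusted p = 0.27), unless the block was used (0.035, and 0.058 without vehicle replicate 3). With 1 nM ONO plus RNO the mean was 87.8 ± 4.35 TPM (-0.24, adjusted p = 0.013), a call that was lost without replicate 1 of that group (-0.20, adjusted p = 0.061). Over the 10 groups every group overlapped its neighbour in the order of means.

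BCL2L1, whose main product in most cells is the anti-apoptotic BCL-xL, fell in the same 5 treatments. Vilanterol libraries held 82.9, 75.2, 73.8 and 78.2 TPM, against 94.2, 94.5, 98.0 and 93.4 TPM in vehicle, without overlap. The log2 fold change was -0.29 ± 0.04 (SE, adjusted p = 1.9e-06). It was -0.33 with vilanterol plus RNO (adjusted p = 2e-07), -0.29 with 1 uM ONO plus RNO (2.7e-06), -0.23 with 1 uM ONO (0.00016) and -0.21 with 1 nM ONO plus RNO (0.0015). The dose series of ONO ran at 95.02 ± 2.03 TPM in vehicle, 91.3 ± 2.40 TPM at 0.1 nM, 85.1 ± 3.93 TPM at 1 nM and 80.7 ± 2.31 TPM at 1 uM (SD, n = 4). At 1 nM the 4 libraries lay below every vehicle library, and the difference of -0.16 had an adjusted p of 0.058. That value was 0.00053 with the block and 0.022 without replicate 1 of the 1 nM ONO group. Without vehicle replicate 3 the difference was -0.14 with an adjusted p of 0.21, and -0.12 with 0.004 in the block fit. It also passed without vilanterol replicate 1 (0.044) or replicate 1 (0.023) or 3 (0.039) of vilanterol plus RNO. Those libraries are in neither group compared, and the difference stayed at -0.16. With the block the differences with RNO alone (-0.14, adjusted p = 0.18, with block 0.0043) and 0.1 nM ONO plus RNO (-0.11, adjusted p = 0.31, with block 0.025) passed too. Without vehicle replicate 3 these became 0.031 and 0.17. BIM and NOXA transcripts rose, and MCL1 and BCL2L1 transcripts fell, in the same 3 groups, 1 uM ONO plus RNO, vilanterol and vilanterol plus RNO.

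BCL2 did not pass in any comparison with vehicle. The group means ran between 2.41 TPM with 1 nM ONO plus RNO and 2.81 TPM with RNO, every group overlapped its neighbours, and the adjusted p was at least 0.49 (0.30 with the block). The 95% interval of the vilanterol difference was -0.16 to 0.36 on the log2 scale, so changes of that size are not excluded.

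The pore-forming genes differed little between groups. BAX libraries held 157.6, 172.0, 160.0 and 185.3 TPM with vilanterol, against 161.6, 171.7, 208.8 and 191.4 TPM in vehicle, and overlapped. Its log2 differences from vehicle lay between -0.13 and -0.01, with adjusted p of at least 0.16. With the block 1 uM ONO plus RNO (0.026), vilanterol (0.041) and vilanterol plus RNO (0.040) passed, and without vehicle replicate 1 (161.6 TPM, the lowest vehicle library) they passed without the block (0.029, 0.041 and 0.039). With vehicle replicate 3 (208.8 TPM) left out, the same 3 adjusted p-values were 0.61, 0.68 and 0.68, and 0.27, 0.42 and 0.43 with the block.

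BAK1 was called once, lower with vilanterol plus RNO. The libraries held 22.5, 23.8, 24.5 and 23.2 TPM, against 24.3, 27.4, 29.6 and 25.4 TPM in vehicle, and overlapped (log2 fold change -0.17 ± 0.06, SE, adjusted p = 0.035). The call was lost without vehicle replicate 2 (0.070), vehicle replicate 3 (0.19) and replicates 1 (0.093), 2 (0.056) and 4 (0.073) of the vilanterol plus RNO group. Differences of -0.16 with 1 uM ONO plus RNO (adjusted p = 0.062), -0.13 with vilanterol (0.12) and -0.14 with 1 nM ONO (0.30) passed with the block (0.0018, 0.0076 and 0.021). Without vehicle replicate 3 as well they were at 0.017, 0.057 and 0.13. Without that library and without the block, they were at 0.29, 0.44 and 0.89. Without the block, the first passed without vehicle replicate 1 (0.020), replicate 1 of 0.1 nM ONO (0.044) or replicate 4 of 1 nM ONO plus RNO (0.049), and the second without vehicle replicate 1 (0.042).

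CASP9, the initiator caspase of the apoptosome, rose in 5 of the 9 treatments, and at both lower doses of ONO alone it was near the vehicle level. Vilanterol libraries held 12.1, 17.0, 16.6 and 18.5 TPM, against 5.90, 5.60, 4.94 and 5.22 TPM in vehicle. The lowest vilanterol library was above the highest vehicle library. The increase was 2.96-fold (log2 fold change 1.40 ± 0.13, SE, adjusted p = 2.2e-10). CASP9 rose 2.77-fold with vilanterol plus RNO (15.0 ± 2.67 TPM, SD, n = 4, adjusted p = 1.1e-09) and 2.78-fold with 1 uM ONO plus RNO (15.1 ± 2.46 TPM, adjusted p = 1.2e-09). In the ONO series it stood at 5.42 ± 0.420 TPM in vehicle, 5.45 ± 0.399 TPM at 0.1 nM, 5.57 ± 0.686 TPM at 1 nM and 10.7 ± 2.09 TPM at 1 uM. The groups up to 1 nM overlapped, and 1 uM lay above them. The log2 difference from vehicle was 0.01 at 0.1 nM (adjusted p = 0.99), 0.03 at 1 nM (0.95) and 0.85 at 1 uM (1.7e-05).

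With RNO in every group the CASP9 series ran at 5.07 ± 0.435 TPM with RNO alone, 6.89 ± 0.800 TPM with 0.1 nM ONO, 8.34 ± 1.40 TPM with 1 nM ONO and 15.1 ± 2.46 TPM with 1 uM ONO (SD, n = 4). The group with 1 nM ONO plus RNO held 6.29, 8.73, 8.88 and 9.45 TPM, all above vehicle (log2 fold change 0.53, adjusted p = 0.013). That call was lost without vehicle replicate 3 (0.49, adjusted p at the threshold of 0.05), without replicate 3 (0.50, adjusted p = 0.054) or replicate 4 (0.47, adjusted p = 0.070) of the treated group. Replicate 1, the highest for BCL2L11, was the lowest for CASP9 in most groups and lay above the group mean in only 1 of 10. In a bulk measurement, a change in a share of the cells and a change of RNA in every cell cannot be told apart, here and for the other genes.

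Adding RNO to an agonist called 1 of the 36 differences. BCL2L11 held 13.0, 11.9, 14.1 and 12.1 TPM with 0.1 nM ONO plus RNO, against 10.6, 8.16, 7.88 and 7.88 TPM with 0.1 nM ONO, without overlap (log2 fold change 0.52 ± 0.10, SE, adjusted p = 0.0037; 1 of 9 genes, 0.723% of all genes called). With 1 nM ONO limma called 0 of 9 (3 at an unadjusted p under 0.05; 0.238% of all genes called), with 1 uM ONO 0 of 9 (4 unadjusted; 0.604%) and with vilanterol 0 of 9 (0 unadjusted; 0%). Each of BCL2L11, PMAIP1 and CASP9 was higher with RNO in 4 of 4 same-numbered libraries at each of the 3 doses of ONO. BCL2L11 was 0.36 higher on the log2 scale with 1 nM ONO (adjusted p = 0.24, with block 0.00089) and 0.31 higher with 1 uM ONO (0.23, with block 0.0026). CASP9 was 0.29 higher with 0.1 nM (0.82, with block 0.095), 0.50 higher with 1 nM (0.14, with block 0.0012) and 0.47 higher with 1 uM ONO (0.11, with block 0.0014). PMAIP1 was 0.22, 0.26 and 0.24 higher (0.54, 0.40 and 0.31, with block 0.049, 0.018 and 0.021). Without the block CASP9 passed at 1 nM when replicate 1 of 1 nM ONO plus RNO was left out (0.025), and at 1 uM when replicate 3 of 1 uM ONO (0.047) or replicate 1 of 1 uM ONO plus RNO (0.038) was left out.

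**Figure D4:**
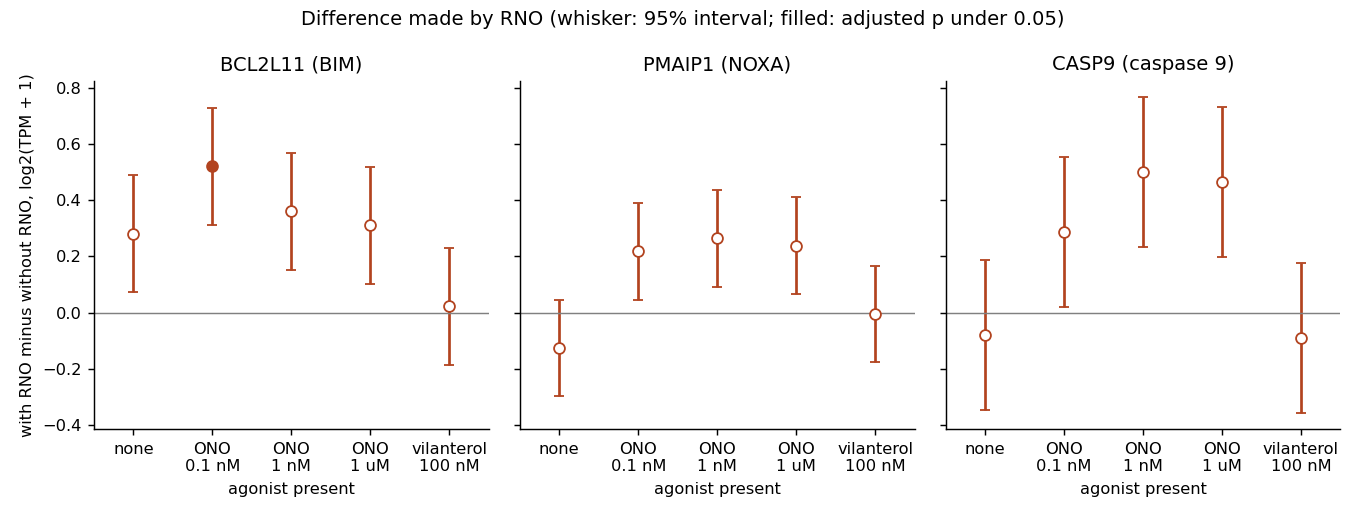
Difference between cells with and without RNO on the log2(TPM + 1) scale (vertical) for BCL2L11, PMAIP1 and CASP9, by the agonist present (horizontal), with 95% intervals and a filled point where the adjusted p is under 0.05. With ONO all 9 points lie above 0, up to 0.52, and with vilanterol the points lie at 0.02, 0.00 and -0.09.

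Added to vilanterol, RNO left BCL2L11 at 28.8 ± 3.24 TPM, against 28.3 ± 2.77 TPM with vilanterol alone (SD, n = 4), a log2 difference of 0.02 with a 95% interval of -0.18 to 0.23. For CASP9 the difference was -0.09 (-0.36 to 0.18), and for PMAIP1 the interval was -0.18 to 0.17.

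The interaction term asks whether RNO made a larger difference with an agonist than it made alone. By limma 0 of 9 genes were called with 0.1 nM ONO (1 at an unadjusted p under 0.05; 0.135% of all genes called), 0 of 9 with 1 nM ONO (2 unadjusted; 0%), 0 of 9 with 1 uM ONO (2 unadjusted; 0.0635%) and 0 of 9 with vilanterol (0 unadjusted; 0.00794%). The PMAIP1 interaction was 0.34 ± 0.12 with 0.1 nM ONO (SE, log2 scale, adjusted p = 0.42, with block 0.025, and 0.053 with the block but without vehicle replicate 3). With 1 nM and 1 uM ONO it was 0.39 and 0.36 (0.40 and 0.27), and that of CASP9 was 0.58 ± 0.19 and 0.55 ± 0.19 (0.40 and 0.30). The BCL2L11 interaction was 0.24, 0.08, 0.03 and -0.26 with 0.1 nM, 1 nM and 1 uM ONO and vilanterol, each with a 95% interval that includes 0 in the fit without the block. With 0.1 nM ONO, where the replicate numbers paired the libraries, the adjusted p for BCL2L11 was 0.78, 0.16 with the block and 0.029 with the block but without vehicle replicate 3 (0.31). For CASP9 with 0.1 nM ONO the interaction was 0.37, with 0.73, 0.12 and 0.041 (0.45) in the same fits.

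Against RNO alone, the agonists with RNO called 12 of 36 differences. With 0.1 nM ONO the count was 0 of 9 by limma (3 at an unadjusted p under 0.05; 0.627% of all genes called), with 1 nM ONO 2 (1.68% of all genes), with 1 uM ONO 5 (12% of all genes) and with vilanterol 5 (15.5% of all genes). These comparisons share the RNO libraries. BCL2L11 rose 1.68-fold with 1 nM ONO (adjusted p = 2.8e-05), 2.65-fold with 1 uM ONO (3.4e-12) and 2.97-fold with vilanterol (1.6e-13). CASP9 rose 1.65-fold (0.0053), 2.97-fold (3.5e-10) and 2.96-fold (3.1e-10) in the same order. PMAIP1 libraries held 8.83, 8.75, 9.26 and 8.37 TPM with 1 uM ONO plus RNO, against 5.61, 4.53, 6.13 and 6.31 TPM with RNO, without overlap (1.56-fold, adjusted p = 4.3e-06), and rose 1.71-fold with vilanterol plus RNO (1e-07).

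MCL1 fell relative to RNO with 1 uM ONO (log2 fold change -0.29, adjusted p = 0.00046) and vilanterol (-0.37, 1.1e-05), and BCL2L1 by less (-0.15, 0.015, and -0.19, 0.0012). The first BCL2L1 call was lost without RNO replicate 1 (-0.13, adjusted p = 0.068) or replicate 3 of 1 uM ONO plus RNO (-0.12, 0.082). With 0.1 nM ONO plus RNO, BCL2L11 exceeded RNO by 0.36, CASP9 by 0.38 and PMAIP1 by 0.25 (adjusted p = 0.13, 0.39 and 0.36, with block 0.00049, 0.014 and 0.018). PMAIP1 with 1 nM ONO plus RNO exceeded RNO by 0.30 (0.058, with block 0.0014). It passed with values rescaled to equal totals (0.031) and in 5 of the fits that left out 1 library, namely vehicle replicate 3 (0.024), RNO replicates 3 (0.043) and 4 (0.036), replicate 2 of 1 nM ONO plus RNO and replicate 2 of 1 uM ONO (both 0.049).

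Between adjacent doses of ONO, BCL2L11 was called at both steps and CASP9 at the upper one. For 1 nM against 0.1 nM 1 of 9 genes was called (0.318% of all genes), BCL2L11 with 1.45-fold (adjusted p = 0.015). That call was lost without replicates 2 (0.062), 3 (0.11) or 4 (0.080) of 0.1 nM ONO or replicate 1 of 1 nM ONO (0.13). At the step to 1 uM 2 genes were called (2.11% of all genes), BCL2L11 with 1.65-fold (3.1e-05) and CASP9 with 1.91-fold (8.9e-05). In the presence of RNO limma called 0 of 9 at the lower step (3 at an unadjusted p under 0.05; 0% of all genes called), where BCL2L11 differed by 0.33 (0.76, with block 0.0070). At the upper step 2 were called (3.99% of all genes), BCL2L11 with 1.58-fold (7.5e-05) and CASP9 with 1.81-fold (0.00011).

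PMAIP1 differed by 0.29 at the upper step without RNO (adjusted p = 0.063, with block 0.0018) and by 0.27 with it (0.072, with block 0.0032). With values rescaled to equal totals both passed (0.042 and 0.041). The first passed without vehicle replicate 3 (0.028), RNO replicate 2 (0.034) or replicate 2 of 1 uM ONO (0.026), and the second without vehicle replicate 3 (0.034), RNO replicate 2 (0.041) or replicate 3 of 1 nM ONO plus RNO (0.044). With RNO present, MCL1 (-0.16, 0.13, with block 0.012) and BBC3 (-0.25, 0.47, with block 0.042) passed at the upper step with the block.

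The maximal doses of both agonists were compared directly, at 1 uM ONO and 100 nM vilanterol. Of 9 genes, 3 were called, all lower with ONO (2.14% of all genes). BCL2L11 held 24.9, 20.1, 18.9 and 18.7 TPM with ONO, against 32.2, 26.6, 28.4 and 26.1 TPM with vilanterol, without overlap (log2 fold change -0.44 ± 0.10, SE, adjusted p = 0.011). CASP9 held 8.75, 9.46, 13.5 and 10.9 TPM with ONO, against 12.1, 17.0, 16.6 and 18.5 TPM with vilanterol, and the groups overlapped (-0.55 ± 0.13, adjusted p = 0.015). PMAIP1 held 6.71, 6.37, 8.31 and 7.99 TPM with ONO, against 8.75, 9.36, 10.9 and 9.74 TPM with vilanterol, without overlap (-0.36 ± 0.08, adjusted p = 0.012). In each of the 3 genes the ONO library was lower in 4 of 4 same-numbered pairs. MCL1 was 0.15 higher with ONO (adjusted p = 0.24, with block 0.028).

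With the block the adjusted p was 1e-05 for BCL2L11, 7.3e-05 for CASP9 and 0.00013 for PMAIP1. Without it, the call of BCL2L11 was lost without replicate 3 (0.051) or 4 (0.056) of ONO or replicate 1 of vilanterol (0.066). That of PMAIP1 was lost without replicate 1 (0.056) or 2 (0.096) of ONO or replicate 3 of vilanterol (0.078), and that of CASP9 without replicate 1 (0.079) or 2 (0.076) of ONO or replicates 2 (0.055), 3 (0.055) or 4 (0.082) of vilanterol. With RNO in both groups limma called 0 of 9 (0 at an unadjusted p under 0.05; 0% of all genes called). BCL2L11 then stood at 25.8 ± 2.77 TPM with ONO and 28.8 ± 3.24 TPM with vilanterol (SD, n = 4, log2 difference -0.16, 95% interval -0.36 to 0.05). CASP9 stood at 15.1 ± 2.46 TPM with ONO and 15.0 ± 2.67 TPM with vilanterol (0.01, -0.26 to 0.28). PMAIP1 stood at 8.80 ± 0.364 TPM with ONO and 9.64 ± 0.658 TPM with vilanterol (-0.12, -0.29 to 0.05).

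Over the 10 group means, which share libraries, fit and vehicle, BCL2L11 ran with CASP9 (Pearson r = 0.97) and PMAIP1 (0.93), and against MCL1 (-0.98) and BCL2L1 (-0.96). CASP9 and PMAIP1 were closer to each other (0.98), and MCL1 and BCL2L1 likewise (0.98). BCL2 followed none of them (r with BCL2L11 0.09). BCL2L11 and CASP9 had the widest ranges of group means, at 1.76 and 1.48 on the log2 scale. Of 768 genes with a range of at least 0.5, 344 had an r over 0.9 with BCL2L11 and 360 with CASP9. Those most like BCL2L11 were LATS2, a kinase of the Hippo pathway (r = 0.999; 129 TPM with vilanterol and 37.4 TPM in vehicle), the surface protein CD200 (0.998; 13.97 and 1.62 TPM) and the hypoxia-inducible factor EPAS1 (0.998; 75.1 and 41.1 TPM). Nearest to CASP9 were the small GTPase GEM (0.996; 30.5 TPM with vilanterol and 7.75 TPM in vehicle), the glucose transporter SLC2A3 (0.996; 82.6 and 21.8 TPM) and the keratin KRT16 (0.996; 2.21 and 0.414 TPM).

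A further 44 apoptosis genes were listed from general knowledge, also with earlier results of these data known. Of these, 40 had a row and 38 were tested, and 23 of their 342 differences from vehicle were called, 8 higher and 15 lower. That is 6.73%, near the 7.21% over all genes in the same 9 comparisons. The count therefore does not set these genes apart, and the values below describe single genes. None is given without vehicle replicate 3, so whether single calls depend on that library is not shown. Among the other BCL2 family genes, 8 of which were tested, 3 were called, all lower. BID, the BH3-only protein that caspase 8 cleaves, was lower with 1 uM ONO (log2 fold change -0.19, adjusted p = 0.011) and vilanterol (-0.16, 0.015). BCL2L12 was lower with 1 uM ONO plus RNO (-0.20, 0.0044), vilanterol (-0.16, 0.019) and vilanterol plus RNO (-0.17, 0.011), and BOK, a BAX-like protein, with 1 uM ONO plus RNO (-0.13, 0.047). With vilanterol the median log2 fold change of the 8 was -0.07, against -0.01 over all genes tested.

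Of the 15 apoptosome, caspase and inhibitor genes, CASP2 and BIRC5 were called. CASP2, another initiator caspase, averaged 20.7 TPM with vilanterol, against 18.4 TPM in vehicle (0.16, adjusted p = 0.014). It was also higher with vilanterol plus RNO (0.17, 0.012) and 1 uM ONO plus RNO (0.16, 0.024). BIRC5, the mitotic inhibitor of apoptosis survivin, averaged 219.5 TPM with vilanterol, against 258.0 TPM in vehicle (-0.23, adjusted p = 0.00079), and was lower in the same 2 combinations and with 1 uM ONO. APAF1, the scaffold of the apoptosome, was not called. In this list the median with vilanterol was 0.06.

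In the death receptor arm (10 genes), TNFRSF10B, which encodes the TRAIL receptor DR5, was higher with 1 uM ONO (0.32, adjusted p = 0.0012), 1 uM ONO plus RNO (0.47, 2.1e-06), vilanterol (0.51, 3.6e-07) and vilanterol plus RNO (0.50, 5.6e-07). It averaged 37.8 TPM with vilanterol, against 26.3 TPM in vehicle. CASP8, the initiator caspase of that arm, averaged 7.72 TPM with vilanterol, against 9.37 TPM in vehicle (-0.25, adjusted p = 0.0061), and its adaptor FADD 27.3 TPM, against 34.2 TPM in vehicle (-0.29, 0.028). Both were lower with vilanterol plus RNO as well (-0.28, 0.0024, and -0.28, 0.041), and CASP8 with 1 uM ONO plus RNO (-0.19, 0.041). Of 5 genes of MCL1 turnover, the deubiquitinase USP9X was called, higher with vilanterol plus RNO (0.24, adjusted p = 0.046). With vilanterol the medians of the last 2 lists were -0.08 and 0.14.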

How the data were processed

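RNA-seq was made from 40 libraries, 4 in each of 10 groups, with poly(A) selection and a directional kit, per the labels' protocols. The values are a normalised TPM signal per gene, deposited by the authors. Column totals of 956888 to 1091466 show that these values were adjusted between samples, so they were handled as a signal and not as plain TPM, and no counts or depths are known. The submitters' processing notes list bcl2fastq 2.18.0.12, kallisto, sleuth and the builds GRCh37 and hg19. Which step each served, and any other version, is not given in the sources used here. Sequencing, per the labels' protocols, was spread over a pair of NextSeq kits. They do not say which library was on which, so kits could not be compared.

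Genes with a mean of at least 1 (12591 of 15788) were fitted with limma 3.58.1 in R 4.3.3 on log2(value + 1), with 1 mean per group over all 40 libraries, 30 residual degrees of freedom and trended empirical Bayes variances. P-values are two-sided and Benjamini-Hochberg adjusted over all 12591 genes within each of 27 comparisons, and adjusted p under 0.05 is a call. Nothing says that replicates were separate cultures, so p-values measure only the spread between these libraries, which may be technical. The procedure was also run on simulated data with noise drawn independently for each library, so that run does not cover spread shared by a replicate number. Its criterion for recovery was set on shifts larger than most of those called here.

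Whether replicate numbers pair the libraries was decided per comparison from the correlation of deviations from group means, which needed to exceed 0.1 in every same-numbered pair. It did in 22 of 27 comparisons. Over 180 pairs r ran between 0.020 and 0.54 (median 0.26, 174 over 0.1), and 40 of 40 libraries correlated best with their own number. For different numbers the median was -0.08. Deviations from a group mean cancel out within the group, so that value is tied to the first and is no separate baseline. The numbers come from the sample labels. Beside single results, values with the block are given only where the pairing held, except for the F test, which spans all comparisons with vehicle. By this rule the pairing did not hold in 5 comparisons. In 1 nM ONO plus RNO against vehicle and in vilanterol plus RNO against RNO, 3 of 4 pairs exceeded 0.1. In the interactions with 1 nM ONO, 1 uM ONO and vilanterol, 23 of 24 pairs did. Counts of calls with the block cover all comparisons unless stated.

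Every one of the 10 genes is reported. Of 4 further gene lists, those called against vehicle are named, and for likeness of pattern the 3 genes with the highest r for the 2 members with the widest range. The members and lists were chosen with earlier results of these data known. RefSeq promoter windows (GRCh38.p14) were matched by gene symbol, which found 9 of 10, and MCL1 is named only. Alternatives were other pseudocounts, filters, scalings, variance estimates and library weights, the replicate block, and leaving out each library.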

Additional observations from a re-analysis of the deposited data

Results flagged for a closer look

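Of 100 combinations of gene and group, 10 held a library farther from the other 3 than Dixon's 95% limit. Chance alone flags about 1 in 20 of independent combinations. These share libraries, and replicate 1 of 1 uM ONO plus RNO was flagged for several genes, so whether 10 is an excess cannot be judged. In 7 of the 10 the flagged library was replicate 1. For BCL2L11 it was 10.6 TPM with 0.1 nM ONO (the others 7.88 to 8.16 TPM) and 29.9 TPM with 1 uM ONO plus RNO (24.1 to 24.6 TPM). For MCL1 it was 68.8 TPM with 1 uM ONO plus RNO (80.7 to 82.5 TPM). For BAK1 it was 23.5 TPM with 0.1 nM ONO (27.2 to 27.7 TPM) and 21.9 TPM with 1 uM ONO plus RNO (24.3 to 24.5 TPM). For BMF it was 1.19 TPM in vehicle (0.637 to 0.710 TPM) and 1.11 TPM with 1 nM ONO (0.863 to 0.895 TPM).

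BAX stood out in replicate 4, at 191.5 TPM with 1 uM ONO (166.6 to 167.9 TPM) and 180.3 TPM with 1 uM ONO plus RNO (161.6 to 163.8 TPM). PMAIP1 stood out in vehicle replicate 3, at 7.62 TPM (5.65 to 5.96 TPM).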

How the results depend on the processing

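The 47 called results of single genes were recomputed under 51 alternatives, 40 of which left out 1 library. Of these, 36 kept their call in every alternative, and none of the 47 changed direction in any. With the replicate block the calls against vehicle numbered 43 in place of 26 (all genes 15.4% in place of 7.21%), and those with RNO added to an agonist 8 in place of 1 (1.87% in place of 0.391%). Those in the interaction numbered 5 in place of 0 (2.07% in place of 0.0516%), and those between agonists and doses 14 in place of 8 (3.89% in place of 1.43%). The other apoptosis genes had 53 calls against vehicle in place of 23. That is 15.5% of their tests in place of 6.73%, near the share over all genes in both fits (15.4% and 7.21%). Of the 5 in the interaction, 1 lay in a comparison where the replicate numbers paired the libraries, and of the 43 against vehicle 38 did. With the block and without vehicle replicate 3, 8 genes differed among the 10 groups in place of 5. No share over all genes is given for that count (33.7% with the block alone). In the same fit the counts were 34 against vehicle (all genes 12.4%), 8 with RNO added (3.28%), 6 in the interaction (2.67%) and 18 between agonists and doses (5.77%). The other apoptosis genes had 46 calls there against vehicle, where the share over all genes was again 12.4%. The block lost none of the 47 calls. Library weights gave 4 calls with RNO added to an agonist. Fitting only the groups compared, which leaves fewer libraries for the variance, gave 0 with RNO added, 4 between agonists and doses and 6 among the other apoptosis genes. No share over all genes is given for that fit or for library weights, so their counts cannot be set apart from a change over all genes.

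Leaving out 1 library gave 5 to 6 genes among the groups, 25 to 34 calls against vehicle, 1 to 2 with RNO added, 0 in the interaction, 11 to 13 against RNO, 6 to 10 between agonists and doses and 18 to 32 for the other apoptosis genes. Shares over all genes are not given beside these ranges, so they cannot be set apart from a change over all genes. Rescaling to equal totals lost 3 calls: MCL1 with 1 nM ONO plus RNO (adjusted p = 0.076), BAK1 with vilanterol plus RNO (0.11) and BCL2L11 at 1 nM against 0.1 nM ONO (0.060). It gained 3, all of PMAIP1, with 1 nM ONO plus RNO against RNO (0.031) and at the upper dose step without RNO (0.042) and with it (0.041). Library weights lost that of BAK1 (0.11), and fitting only the groups compared lost 10. The cause of these losses was not tested. Depth is unknown, so the counting error of genes at a few TPM, such as BCL2 and BMF, cannot be given.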
